A study of Mus musculus with 3 samples.

Results

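Sequenced chromatin immunoprecipitation (ChIP-seq) peaks were examined at 6 genes that mark the direct-pathway and the indirect-pathway class of striatal projection neuron. The peaks were all those of the RARβ list and of the H3K4me3 list that overlapped a window around each gene in mouse build mm9: Drd1 (chr13:54135000-54165000), Tac1 (chr6:7495000-7520000), Pdyn (chr2:129500000-129540000), Drd2 (chr9:49140000-49225000), Adora2a (chr10:74770000-74805000) and Penk (chr4:4050000-4075000). The windows held 14 of the 8075 RARβ peaks and 9 of the 35971 H3K4me3 peaks. The windows were set around the genes, not by any peak value, but the genes were chosen with earlier results of these data known.

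Both libraries came from caudate putamen, the dorsal striatum, of wild-type male mice on a mixed C57BL/6J x 129SvEms/j background. These mice were littermates of RARβ-null animals from heterozygous crosses. Their age, and whether tissue was pooled from several animals, are not given in the sources used here. One antibody was raised against the retinoic acid receptor RARβ (sc-552) and the other against histone H3 trimethylated at lysine 4, H3K4me3 (ab8580), with 1 library each, so no value has a replicate error. Peaks of a library made with an antibody to GFP were not analysed here, and whether that library is the control behind the fold, score and FDR of both lists is not stated in the sources used here. The RARβ library kept 2237580 tags after filtering and the H3K4me3 library 47461843. Tissue was not sorted, so a mark on many cells at a low level and one on few cells at a high level cannot be told apart.

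Medium spiny neurons are the projection neurons of the striatum. Those of the direct pathway express the D1 dopamine receptor, encoded by Drd1, with the neuropeptide precursors of substance P (Tac1) and dynorphin (Pdyn). Those of the indirect pathway express the D2 dopamine receptor (Drd2), an adenosine receptor (Adora2a) and the enkephalin precursor (Penk). H3K4me3 is a histone mark of active promoters, and a long marked stretch is a known feature of some cell identity genes. RARβ is a ligand-activated transcription factor that binds retinoic acid and is abundant in the striatum.

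Promoter sequences, from 250 bases before to 50 after an annotated start site, were found in RefSeq (GRCm38.p6) for 4 of the 6 genes: Drd1, Drd2, Tac1 and Pdyn. They are shown, for the most upstream start site of each gene, because the main H3K4me3 peaks are read as promoter marks and because RARβ binds hexamers related to AGGTCA. Capitals mark matches, on either strand, to the nuclear receptor hexamer AGGTCA or its variants GGGTCA as well as AGTTCA together with GGTTCA, to the GC box GGGCGG, to the cAMP response element TGACGTCA or its core TGACG, and to the TATA box TATAAA. The builds differ, so these bases were not placed on the mm9 peaks.
Drd1: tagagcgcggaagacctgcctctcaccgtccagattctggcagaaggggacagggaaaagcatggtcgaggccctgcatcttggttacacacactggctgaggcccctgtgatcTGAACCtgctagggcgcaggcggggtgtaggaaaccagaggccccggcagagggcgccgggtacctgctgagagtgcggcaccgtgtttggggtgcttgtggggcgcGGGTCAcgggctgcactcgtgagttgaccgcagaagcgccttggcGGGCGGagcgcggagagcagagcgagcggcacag
Drd2: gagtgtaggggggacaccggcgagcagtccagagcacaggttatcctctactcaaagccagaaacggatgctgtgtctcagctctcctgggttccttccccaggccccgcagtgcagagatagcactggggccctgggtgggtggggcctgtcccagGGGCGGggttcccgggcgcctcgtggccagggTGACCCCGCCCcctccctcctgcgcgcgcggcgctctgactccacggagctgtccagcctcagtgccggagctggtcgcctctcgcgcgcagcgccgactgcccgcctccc
Tac1: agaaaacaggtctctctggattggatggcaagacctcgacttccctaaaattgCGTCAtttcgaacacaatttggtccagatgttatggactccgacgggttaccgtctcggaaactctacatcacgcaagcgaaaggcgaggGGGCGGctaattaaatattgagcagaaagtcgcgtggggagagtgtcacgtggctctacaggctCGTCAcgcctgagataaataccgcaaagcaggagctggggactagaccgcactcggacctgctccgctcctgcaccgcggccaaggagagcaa
Pdyn: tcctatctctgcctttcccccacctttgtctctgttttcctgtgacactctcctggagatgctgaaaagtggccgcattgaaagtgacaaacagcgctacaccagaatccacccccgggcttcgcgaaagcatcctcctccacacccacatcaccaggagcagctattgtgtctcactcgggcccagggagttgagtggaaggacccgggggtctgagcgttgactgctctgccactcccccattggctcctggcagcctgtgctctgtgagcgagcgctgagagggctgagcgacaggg

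The Drd1 promoter held the hexamer GGGTCA and, on the other strand, GGTTCA. In Drd2 a GGGTCA on the other strand shared 1 base with a GC box. Neither Tac1 nor Pdyn had any of the 4 hexamers, which occur singly or together in 43.7% of all 32851 promoters of the same length. Direct repeats of these hexamers spaced by 1, 2 or 5 bases, the arrangements that retinoic acid receptors are known to prefer, were found in none of the 4 promoters and in 0.222%, 0.268% and 0.0974% of all promoters. GC boxes were present in Drd1, Drd2 and Tac1, against 35.7% of all promoters. The core TGACG occurred at 2 places in Tac1 and in no other of the 4, against 20.8% of all promoters. Base composition differed among them, with 70.3% G and C in Drd2, 65.7% in Drd1, 59.0% in Pdyn and 54.0% in Tac1, beside a median of 52.7%. These are matches of letters, and no peak was tied to any of them.

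H3K4me3 peaks were called at all 6 loci. Each gene had 1 main H3K4me3 peak, taken as the peak of its window with the most tags, and each of these 6 peaks had the score of 3100 that 31.6% of the list shared. The score is −10 times log10 of the authors' p-value. Main peaks were long: 5 of the 6 belonged to the widest 10% of the list, which starts at 4175 bp, while the list median was 1679 bp. Pdyn was the exception, at 3247 bp.

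**Figure D1:**
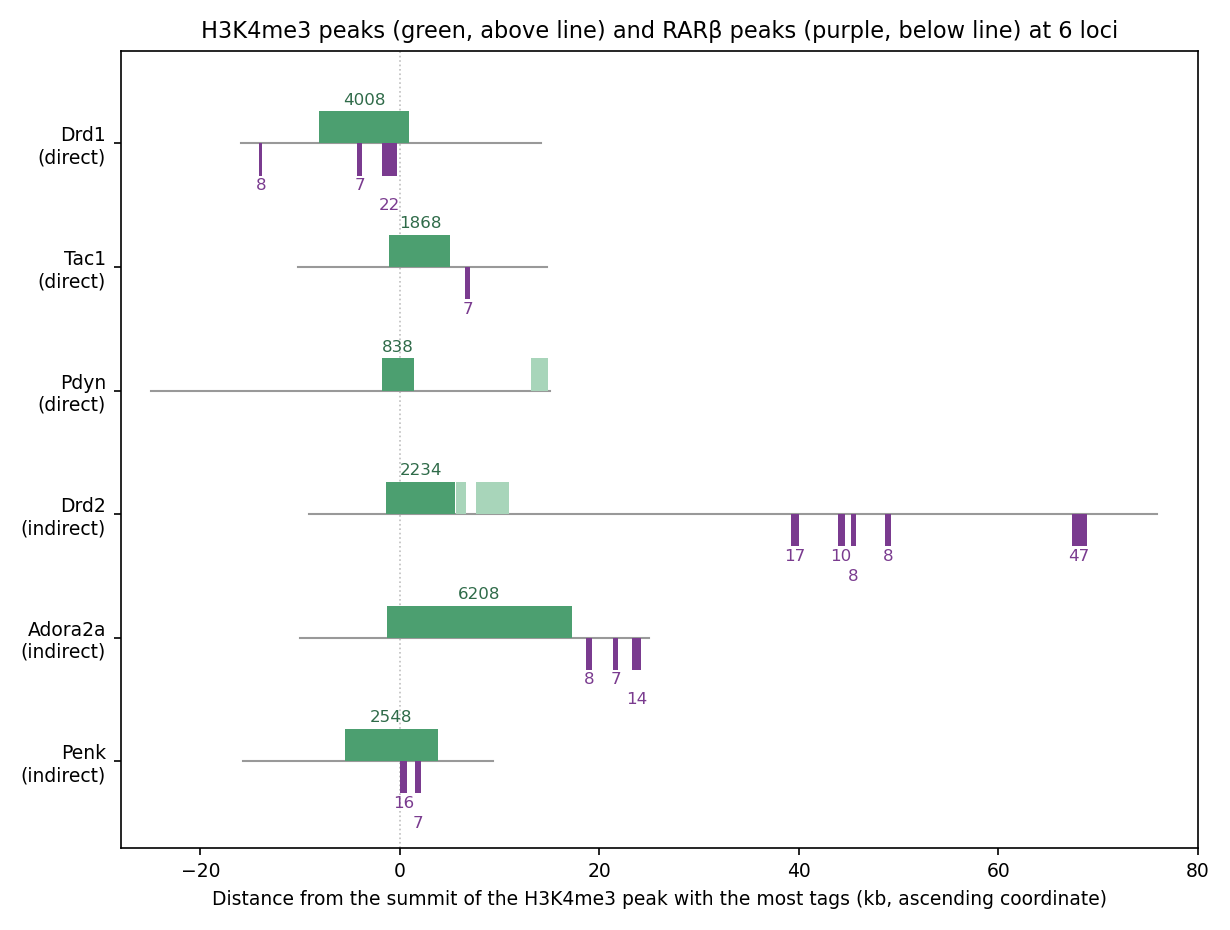
Positions of H3K4me3 peaks (dark green, main peak; light green, other peaks) and RARβ peaks (purple) in the 6 windows (grey lines), as distance in kb from the summit of the main H3K4me3 peak along ascending mm9 coordinates; numbers are tags in the main H3K4me3 peak and in each RARβ peak. RARβ peaks lie in the mark at Penk and, for 2 of 3, at Drd1, beyond it at Tac1, Adora2a and Drd2, and none was called at Pdyn.

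Among the dopamine receptors, Drd1 carried the densest mark of the 6 genes. Its single H3K4me3 peak (chr13:54142813-54151840) was 9028 bp long with 4008 tags (exact Poisson 95% interval 3885 to 4134), or 444 tags per kb. Of all H3K4me3 peaks 87.0% had a lower density, and only 300 were longer. The authors' fold enrichment over the control was 12.64 at Drd1, the lowest of the 6 main peaks, beside a list median of 10.27. The summit lay 966 bp from the high-coordinate end and 8061 bp from the low-coordinate end. RefSeq places Drd1 on the minus strand, so the longer side ran in the direction of transcription.

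Drd2 had a shorter main peak and further marked stretches behind it. The main peak (chr9:49147695-49154652) spanned 6958 bp with 2234 tags (2142 to 2329), or 321 tags per kb, at a fold enrichment of 25.61. A peak of 1011 bp with 59 tags and one of 3314 bp with 337 tags followed at higher coordinates. Their densities of 58.4 and 102 tags per kb were below the list median of 121. Together the 3 peaks covered 11283 bp, and the main one held 84.9% of their tags. Its summit stood 1376 bp from the low-coordinate end, and Drd2 lies on the plus strand, so here too the longer side ran along the gene.

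Adora2a carried the longest mark. One H3K4me3 peak (chr10:74778774-74797291) covered 18518 bp, 52.9% of the window, and was the 23rd longest of the list. Its 6208 tags (6055 to 6364) ranked 46th. The density of 335 tags per kb and the fold enrichment of 25.36 were close to those of Drd2. The summit was 1275 bp from the low-coordinate end, leaving 93.1% of the peak on the other side. For the 1261 H3K4me3 peaks of 6 kb or more, the longer side held a median of 74.5% of the length.

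The main peaks of the 3 neuropeptide genes differed in length. Penk had a peak of 9252 bp (chr4:4060241-4069492) with 2548 tags (2450 to 2649), 275 tags per kb and the highest fold enrichment of the main peaks, 32.11. Its summit was nearer the middle, with 59.0% of the length on the longer side. Tac1 had a peak of 6114 bp (chr6:7504199-7510312) with 1868 tags (1784 to 1955), 306 tags per kb and a fold enrichment of 21.98. As at Drd2, a plus-strand gene, its summit lay near the low-coordinate end, at 1035 bp.

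Pdyn had the shortest main peak of the 6, with the fewest tags and the lowest density, though not the lowest fold enrichment. Its main peak (chr2:129523126-129526372) had 838 tags (782 to 897), 258 tags per kb and a fold enrichment of 14.83, and 81.5% of the list was narrower. A second peak of 1770 bp with 126 tags lay 14.3 kb away, summit to summit. At an empirical FDR of 17.28% that second peak was not among the 35.0% of H3K4me3 peaks whose FDR was 5% or less. The same held for the lesser peaks of Drd2, at 13.68% and 15.93%, while all 6 main peaks had 3.36%.

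In tags per kb of the main peak the order was Drd1, Adora2a, Drd2, Tac1, Penk and Pdyn. The Poisson intervals did not overlap between Drd1 and Adora2a or between Tac1 and Penk. They overlapped between Adora2a and Drd2, between Drd2 and Tac1, and between Penk and Pdyn. These intervals cover counting error only and take the called length of each peak as fixed. From Drd1 to Pdyn the density changed by a factor of 1.72, whereas length changed by a factor of 5.70 between Adora2a and Pdyn. The loci thus differed more in length than in density of the mark.

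**Figure D2:**
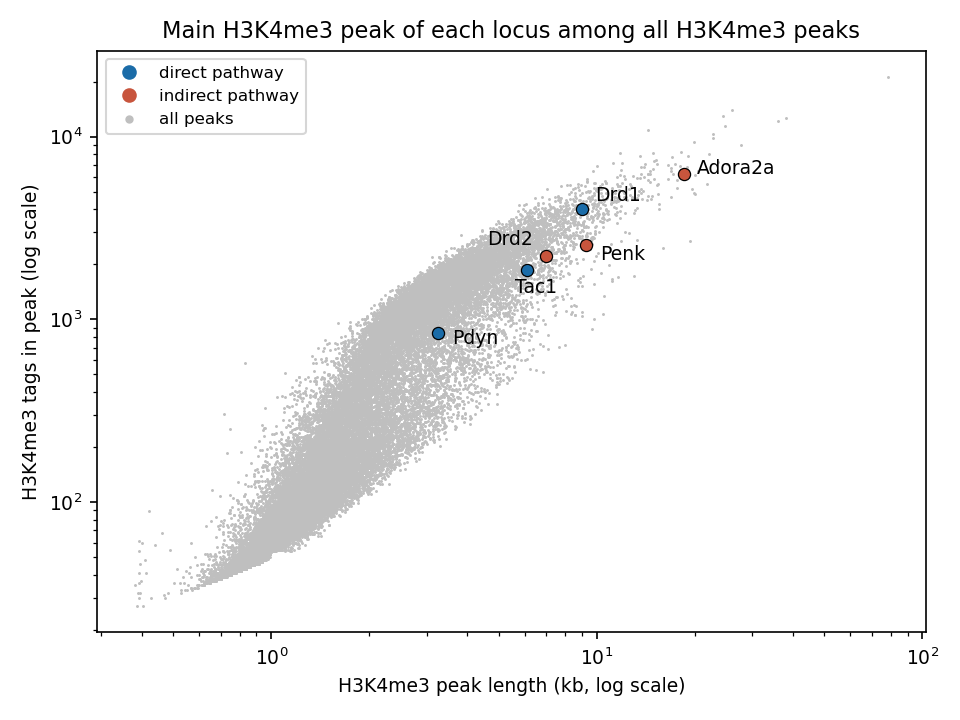
Length (kb) against tags of every H3K4me3 peak (grey, log scales), with the main peak of each locus in blue (direct pathway) or red (indirect pathway). Adora2a lies at the long end at 18518 bp and 6208 tags. Pdyn is the shortest of these main peaks at 3247 bp and 838 tags, above the list medians of 1679 bp and 206 tags.

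Direct-pathway and indirect-pathway genes were then compared for the promoter mark. H3K4me3 covered 9028 bp at Drd1, 6114 bp at Tac1 and 5017 bp at Pdyn, a median of 6114 bp. It covered 18518 bp at Adora2a, 11283 bp at Drd2 and 9252 bp at Penk, a median of 11283 bp. The medians differed by -5169 bp (direct minus indirect), and the groups did not overlap, although only 224 bp separated Penk from Drd1. Windows wider by 10 kb on each side ended that separation. They took in a further H3K4me3 peak, which brought the Drd1 sum to 11858 bp, above Drd2 and Penk. That peak lies 1.60 kb beyond the Drd1 window, on the side of the next gene, Sfxn1. Which of the 2 genes it marks was not tested. With the main peak of each gene alone the groups overlapped, since Drd1 at 9028 bp exceeded Drd2 at 6958 bp, and the difference was -3138 bp.

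Tags followed length only in part. The direct-pathway genes had 4008 tags at Drd1, 1868 at Tac1 and 964 at Pdyn, and the indirect-pathway genes 6208 at Adora2a, 2630 at Drd2 and 2548 at Penk. The medians of 1868 and 2630 tags differed by -762, but Drd1 lay above both Drd2 and Penk. Per kb of covered length, the median was 306 tags for the direct-pathway and 275 for the indirect-pathway genes, which turned the direction. In the main peaks alone, without the sparse lesser peaks of Drd2 and Pdyn, it did not turn, with medians of 306 and 321 tags per kb. The ranges overlapped, at 258 to 444 tags per kb for the direct and 275 to 335 for the indirect genes.

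Fold enrichment of the main peaks separated the groups, at 12.64, 14.83 and 21.98 for Drd1, Pdyn and Tac1 against 25.36, 25.61 and 32.11 for Adora2a, Drd2 and Penk. Each was above the H3K4me3 list median of 10.27. The H3K4me3 library had 12.8 times the tags of its control, so this fold rests on few control tags, and its part in the separation was not tested. With 3 genes a pathway and 1 library, no test was made of any of these differences. Genes are not replicates of a pathway.

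**Figure D3:**
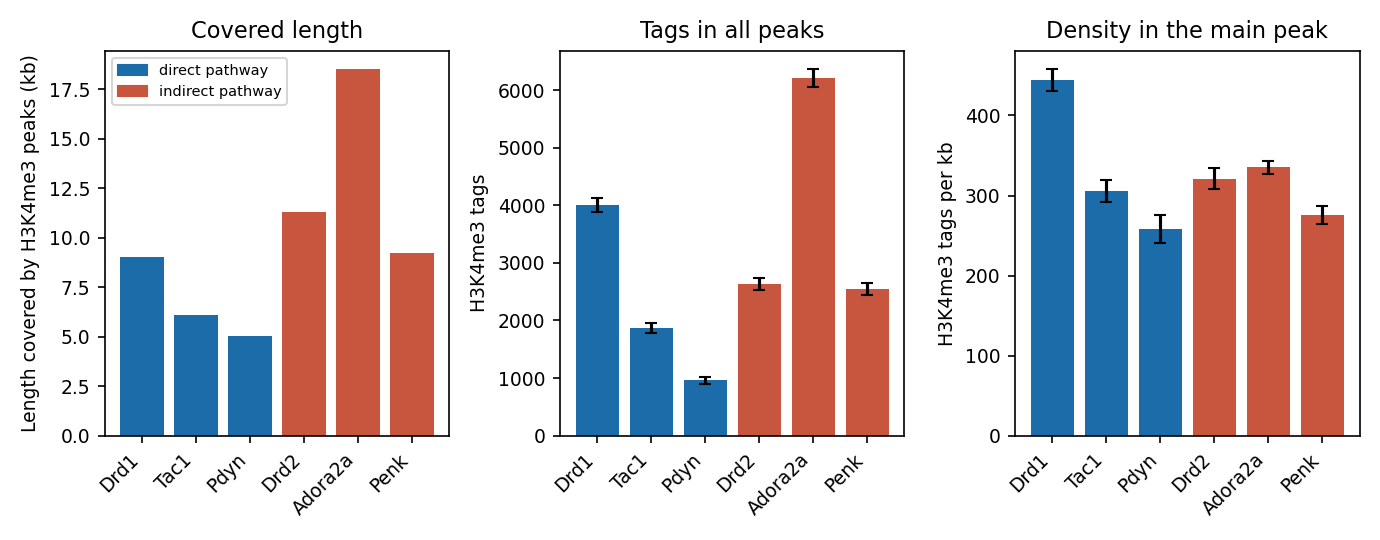
Length covered by H3K4me3 peaks (kb), H3K4me3 tags in all peaks of the window, and tags per kb of the main peak for the 3 direct-pathway (blue) and 3 indirect-pathway genes (red); error bars are exact Poisson 95% intervals. Covered length in these windows is lower in each direct-pathway gene than in any of the indirect-pathway genes, while Drd1 has the highest density at 444 tags per kb.

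RARβ peaks were called at 5 of the 6 loci. What share of other gene windows of such lengths hold a RARβ peak was not computed. Of the 14 peaks, 10 lay outside H3K4me3. The 4 inside made up 28.6%, beside 64.9% of all RARβ peaks. Of the 10 outside, 5 lay in the Drd2 window, the longest of the 6. Peaks of 1 locus are neighbours and not separate observations, so no interval is put on this share. Most were weak: 8 of the 14 had 7 or 8 tags, where 7 is the fewest in the list, beside 37.2% of all RARβ peaks. Their median fold enrichment was 16.82, against 19.35 in the whole list. Of the 6 main H3K4me3 peaks, those of Drd1 and Penk held a RARβ peak. The share of all H3K4me3 peaks that did was 13.1%, and in the widest 10%, to which both belong, 35.2%.

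Drd2 had the strongest RARβ peak of the 6 genes. It lay at chr9:49216430-49217924 with 47 tags (34.5 to 62.5), a fold enrichment of 88.99 and a score of 497.31. By fold it was 37th of 8075 RARβ peaks, and 13th of the 2831 outside H3K4me3. The nearest H3K4me3 peak was 56.4 kb away, the farthest of the 3 at Drd2, and the main H3K4me3 summit was 67.8 kb away. Its empirical FDR of 3.12% was high for this list, in which 97 peaks exceeded 1%. The other 13 RARβ peaks of these loci had 0.05% to 0.28%. Its score, however, ranked 32nd in the list and above all 13, so FDR and score order these peaks differently. In RefSeq gene order Ankk1 is the next protein-coding gene after Drd2, and which of them this site serves was not tested.

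A group of 4 weaker RARβ peaks lay between that site and the promoter mark of Drd2. At chr9:49188289-49189102 there were 17 tags with a fold enrichment of 16.22, and at chr9:49192993-49193659 there were 10 tags with 19.87. The remaining pair, at chr9:49194261-49194808 and chr9:49197667-49198348, had 8 tags each with 12.77 and 19.16. Their summits spanned 9.26 kb and stood 39.8 to 49.1 kb from the main H3K4me3 summit. Groups of 4 or more RARβ peaks with neighbouring summits at most 10 kb apart held 4.46% of the list.

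Adora2a had 3 RARβ peaks, all beyond the far end of its long mark. They lay 1.43, 4.18 and 6.03 kb from its edge, at chr10:74798723-74799271 with 8 tags, chr10:74801469-74801974 with 7 and chr10:74803322-74804205 with 14. Fold enrichment was 27.08, 17.42 and 9.2 in that order, so the peak with the most tags had the lowest fold. No RARβ peak was called in the 18518 bp of H3K4me3 at Adora2a. The neighbour of Adora2a at higher coordinates in RefSeq gene order is Upb1.

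At Penk both RARβ peaks were inside the mark and close to its summit. The stronger one, at chr4:4065697-4066445, had 16 tags (9.15 to 26.0) and a fold enrichment of 21.07, with its summit 537 bp from that of H3K4me3. The other, at chr4:4067247-4067870, had 7 tags and a fold enrichment of 15.33 at 1704 bp.

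Drd1 was the direct-pathway gene with the most RARβ peaks, and 2 of its 3 were inside the mark. The peak nearest the H3K4me3 summit, 1618 bp from it, was broad: chr13:54149047-54150636, 1590 bp with 22 tags (13.8 to 33.3) and a fold enrichment of 13.93. Only 104 RARβ peaks of the list were longer. A peak of 7 tags lay at chr13:54146585-54147075, and one of 8 tags at chr13:54136757-54137104, 5.71 kb outside the mark. The latter had the second highest fold enrichment of the 14, 30.95, on a length of 348 bp.

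Tac1 had 1 RARβ peak and Pdyn none. The Tac1 peak (chr6:7511773-7512294) had 7 tags and a fold enrichment of 12.77, lay 1.46 kb beyond the end of the mark, and 2.04% of the list had a lower score than its 51.61. From the main H3K4me3 peak of Pdyn the nearest RARβ peak was 99.7 kb away. Sites with fewer than 7 tags were not detectable at this depth, so a weaker site at Pdyn would not appear.

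**Figure D4:**
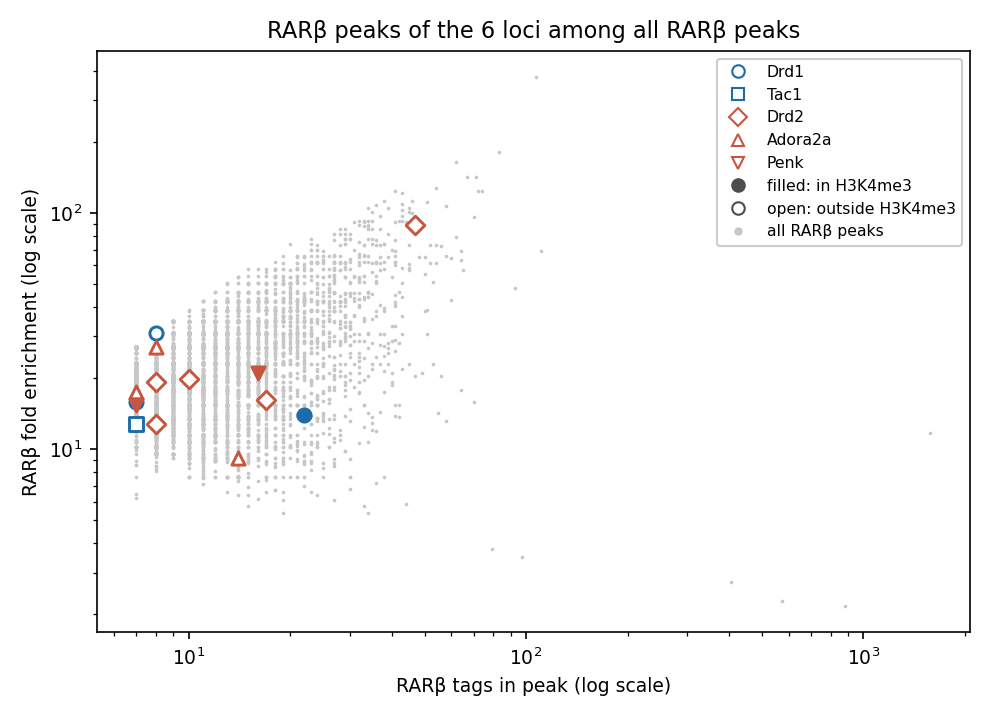
Tags against fold enrichment of every RARβ peak (grey, log scales), with the 14 peaks of the 6 loci by gene (symbols), pathway (blue direct, red indirect) and position (filled inside H3K4me3, open outside). The Drd2 peak at 47 tags and 88.99-fold stands apart from the other 13, which have at most 22 tags.

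Summed by pathway, there were 4 RARβ peaks with 44 tags at the direct-pathway genes and 10 with 142 tags at the indirect-pathway genes. The differences were -6 peaks and -98 tags. A single Drd2 peak held 47 of the tags, and without it the indirect-pathway genes had 95. The windows were of unequal length, 95 kb against 145 kb, which gives 4.21 and 6.90 peaks per 100 kb. No such rate over other gene windows was computed. Drd2, with the longest window, carried most of the difference in number: without it the indirect-pathway genes had 5 peaks and 52 tags. Per length it did not, since without Drd2 the indirect-pathway rate was 8.33 peaks per 100 kb. In equal windows of 25 kb around the main H3K4me3 summits the direction turned, with the outermost Drd1 peak and all RARβ peaks of Drd2 and Adora2a left out. These windows held 3 peaks (36 tags) at the direct and 2 (23 tags) at the indirect genes. At Adora2a the summit lies 1275 bp from the low-coordinate end of a mark of 18518 bp. Such a window therefore ends inside that mark, short of its RARβ peaks. Inside H3K4me3 each pathway had 2 RARβ peaks, with 29 tags at Drd1 and 23 at Penk.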

How the data were processed

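Peak lists of 1 RARβ and 1 H3K4me3 library were used. The submitters' processing notes name CASAVA 1.8.2, Bowtie, MACS 1.4.2 and build mm9. Per the file headers, peaks were called by the authors with MACS 1.4.2 on each library alone against the same control, at a p cutoff of 1e-05 and with at most 1 tag kept per position. The headers do not name the antibody of the control. The control was scaled down for RARβ and up for H3K4me3. Of the tags, 55.2% were removed as redundant from the RARβ library and 21.4% from the H3K4me3 library.

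The authors deposited unnormalized tag counts, with the length and summit offset of each peak. Fold enrichment is the authors' ratio of the pileup at the summit to local background. The deposited score is −10 times log10 of the p-value, recognised from the column order because its name was lost. An empirical FDR in percent was deposited for each peak.

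A peak belonged to a locus if it overlapped the window by at least 1 bp, and was counted whole. Tags and lengths were summed per window, medians were taken over the 3 genes of a pathway, and RARβ peaks were summed. Poisson intervals are exact at 95%, and all intervals cover counting error only, since each antibody has 1 library. The tags of these PCR-amplified libraries also carry no molecular identifiers. Overlap, interval and motif functions were checked on simulated data. The members and lists were chosen with earlier results of these data known. By rule, the main H3K4me3 peak and every RARβ peak of each locus are named. An mm9 annotation or genome was not used here, so sites are not assigned to exons or introns and other striatal genes planned for comparison were not analysed here. Python 3.11.15, numpy 2.4.6, pandas 2.3.3, scipy 1.17.1 and matplotlib 3.10.9 were used.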

Additional observations from a re-analysis of the deposited data

How the results depend on the processing

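The differences between pathways (direct minus indirect) were recomputed under 35 combinations of result and alternative, of which the 4 that leave out a locus were chosen after seeing the data. Of the 35, 28 stayed lower in the direct-pathway genes, 5 turned and 2 were 0. These are not 35 separate checks. The FDR limit of 5% could leave out no RARβ peak of these loci, since none exceeded 3.12%. Several settings for covered length gave the same value. Requiring the summit in the window changed none of the 4 differences. Widening each window by 10 kb added 1 H3K4me3 peak, on the Sfxn1 side of Drd1. It took the Drd1 sum from 9028 to 11858 bp, past Drd2 and Penk. The medians, set by Tac1 and Drd2, could not move with it. The difference in covered length was -4158 bp with scores of at least 100, -3138 bp with an FDR of at most 5%, with the peak of most tags alone or with the widest peak alone, -6298 bp by means and -4153.5 bp without Adora2a. The difference in H3K4me3 tags was -1515 by means and turned to 30.1 per kb of covered length. The difference in RARβ peaks turned to 1 and that in RARβ tags to 13 in equal windows of 25 kb, which left out the RARβ peaks of Drd2 and Adora2a and the outermost one of Drd1. With RARβ peaks in H3K4me3 only, by any overlap or by most of their length, the differences were 0 peaks and 6 tags. With scores of at least 100 they were -1 peak and -41 tags, and without Drd2 they were -1 peak and -8 tags. No paired analysis was possible because each antibody has 1 library. At 7 or 8 tags, 8 of the 14 RARβ peaks were at the limit of detection of a library of 2237580 tags.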

Other observations

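Widening the windows by 10 kb on each side added 1 peak. It was an H3K4me3 peak at chr13:54166601-54169430, 1.60 kb beyond the Drd1 window, with a length of 2830 bp, 843 tags and a fold enrichment of 39.01. No RARβ peak was added at any of the 6 loci. In RefSeq gene order the protein-coding gene next to Drd1 at higher coordinates is Sfxn1.

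Promoter windows of a further start site were listed for Drd1 and Pdyn. The one of Drd1 held a GC box and none of the 4 nuclear receptor hexamers, at 59.3% G and C. The one of Pdyn held none of the motifs searched, at 44.3% G and C.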
